A study of Mus musculus with 3 samples.

Results

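The cytosolic ribosomal protein genes were the genes whose symbol starts with Rpl or Rps followed by a digit, without ribosomal S6 kinases (Rps6k) and symbols marked as pseudogenes (-ps). The pattern matched 81 genes, 33 of the small subunit (Rps) and 48 of the large subunit (Rpl), and all 81 were present in each of 3 deposited expression tables of 17678, 16462 and 16887 genes. The choice used symbols only, not measured values. It also took in Rps19bp1, which encodes a protein that binds Rps19 and is no part of the ribosome, and it missed others, such as Rplp0, Rplp1, Rplp2, Rpsa and Rack1, which form a list of their own below.

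The study was a CITE-seq experiment, in which mRNA and antibody tags are read from the same droplets, on immune cells from 1 brain hemisphere per animal and on whole blood of female C57Bl/6 mice of 2 to 3 months. The 8 hashtagged samples were run in 1 pooled library and split afterwards by hashtag, and cells were stained with 35 antibodies. The naive brain table held 2 CCR2+/- and 2 CCR2-/- samples, none of them with a tumour. The naive blood table held 1 sample called Het and 1 called Hom, and the metastasis-bearing blood table held another Het and another Hom sample, taken about 2 weeks after an injection of E0771 breast cancer cells, delivered through the carotid artery. The genotype labels of the series name Cx3cr1 and CCR2 alleles, and no label used here says which of these genes Het and Hom refer to. No group was wild type, so every control carried 1 altered allele. Nothing in the labels says that any sample joined several animals.

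A cell was used when its barcode stood in 1 table only and at least 0.5 of its hashtag counts came from the hashtags of that table. This kept 3350 brain, 3694 naive blood and 4019 metastasis-bearing blood cells, 11063 of 16328 deposited. A total of 2401 barcodes stood in more than 1 table. The median raw depth per sample ran from 3929 to 7394 raw UMIs per cell. Ccr2 was at 0.468 and 0.428 corrected counts per 10000 in the CCR2+/- brains and at 0.149 and 0.133 in the CCR2-/- brains, lower in both but not absent. In blood, Ccr2 was not lower in either Hom sample than in its Het sample (1.62 against 1.60 and 4.604 against 3.33), and Cx3cr1 was lower in both (0.521 against 0.905 and 0.521 against 0.863).

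Cytosolic ribosomes are built from a small subunit, which reads the mRNA, and a large subunit, which joins the amino acids. Their proteins are needed in matched amounts, and their mRNAs are among the most abundant in growing cells. Most of these mRNAs start with a cytosine followed by a stretch of pyrimidines, the terminal oligopyrimidine or TOP tract, through which their translation is switched on and off together by nutrient and growth signals. Resting T cells hold ribosomal protein mRNAs whose translation rises on activation, and neutrophils leave the bone marrow as short-lived cells that no longer divide.

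The RefSeq table for mouse build GRCm38.p6 matched all 81 symbols and held a start site for 62 of them. A cytosine followed by at least 4 bases that are C or T, read on the gene's own strand and beginning exactly at the annotated start, was present in 12 of the 62 members (19.4%), in 673 of 27025 genes of the whole table (2.49%) and in none of 69 mitochondrial ribosomal protein genes. Such a run beginning within 10 bases of the start was present in 56.5% of the members, in 30.8% of all genes and in 42.0% of the mitochondrial ribosomal protein genes. The annotated start can differ from the start used in these cells, and a match is a description of letters only. The sequences below are those of members that the results turn on. Each runs from 10 bases before to 20 bases from the start, 5′ to 3′ on the gene's strand, and capitals mark the pyrimidines that run on from the start base. Rps18, Rps15a and Rpl35 show the run at the start, as does Rps27. The 12 members with this run differed by -3.38 (Rps18) to -1.52 (Rps27rt) on the log2 scale between the neutrophil and B220+ gates of blood described below. The median difference was -2.44 for 34 members with a run within 10 bases and -2.24 for 27 without one. Rps27 and its retrotransposed copy Rps27rt both begin with such a run. Rps9, Rpl37, Rpl41 and Rps25 were among the least lower members in neutrophils, and Rps19 and Rpl12 among the most lower. Rpl3l is the paralogue that went the other way.
Rps18 (chr17:33955646-33955675, minus strand): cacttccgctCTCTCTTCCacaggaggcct
Rps15a (chr7:118116128-118116157, minus strand): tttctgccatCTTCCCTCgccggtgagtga
Rpl35 (chr2:39005112-39005141, minus strand): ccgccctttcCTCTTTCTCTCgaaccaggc
Rps27 (chr3:90213629-90213658, minus strand): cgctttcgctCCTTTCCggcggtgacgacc
Rps27rt (chr9:114982720-114982749, minus strand): ttatcccttgCTTTCCggcggtgacgacct
Rps9 (chr7:3704031-3704060, plus strand): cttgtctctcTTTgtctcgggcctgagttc
Rpl37 (chr15:5116603-5116632, plus strand): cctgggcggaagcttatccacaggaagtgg
Rpl41 (chr10:128549149-128549178, minus strand): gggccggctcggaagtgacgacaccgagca
Rps25 (chr9:44407704-44407733, plus strand): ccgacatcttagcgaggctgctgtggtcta
Rps19 (chr7:24884582-24884611, plus strand): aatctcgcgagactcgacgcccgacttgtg
Rpl12 (chr2:32961702-32961731, plus strand): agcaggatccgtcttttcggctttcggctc
Rpl3l (chr17:24727816-24727845, plus strand): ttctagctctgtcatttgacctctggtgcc

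The levels of single members spanned a wide range. Values are corrected counts per 10000 of all corrected counts of a sample, not divided by transcript length. The authors' normalisation derived them from UMIs (unique molecular identifiers, each marking 1 captured RNA molecule), so they are not numbers of observed molecules. In a low-RNA cluster of brain the median corrected total per cell was 4994, beside a median of 1563 raw UMIs. In monocyte-like cells of naive blood it was 5126, beside 11709 raw UMIs. Averaged over the 4 blood samples, Rps24 was at 56.6, Rps29 at 56.5, Rps27 at 52.0, Rpl37a at 38.8 and Rpl13 at 38.2. In the 4 brain samples the same measure was 35.8 for Rps29, 26.1 for Rps24, 20.5 for Rpl13, 20.4 for Rps27 and 19.6 for Rps21. The lowest members were mostly paralogues. In blood Rps27l was at 1.38, Rpl7l1 at 0.498, Rps19bp1 at 0.228, Rpl3l at 0.141 and Rpl39l at 0.00707, and in brain Rps27rt was at 0.802, Rpl7l1 at 0.525, Rps19bp1 at 0.244, Rpl39l at 0.0114 and Rpl3l at 0.00982. Rpl39l, a paralogue of Rpl39 best known from testis, had 24 corrected counts in all of blood and 25 in all of brain. Ribosomal protein genes have many near-identical processed copies in the genome, so levels of single members are uncertain to the extent that reads were split among copies.

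The share of corrected counts in the 81 genes differed among cell classes. In naive blood it was lowest in neutrophil-like cells, at 4.69% in the Het and 5.99% in the Hom sample. Platelet-like cells followed at 7.73% and 7.87%, a low-RNA cluster at 9.89% and 9.24%, and monocyte-like cells at 16.1% and 18.1%. The cluster whose cells lay almost all in the B220+ antibody gate (1166 of 1243 cells, B220 being the CD45 isoform of B cells) was at 27.7% and 27.3%, and T cell-like cells were highest at 33.4% and 32.2%. The classes did not overlap between the 2 samples, and T cell-like cells held 6.25 ± 1.24 times the share of neutrophil-like cells (SD, n = 2).

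Metastasis-bearing blood had the same order. Neutrophil-like cells were at 5.70% in the Het and 6.17% in the Hom sample, the low-RNA cluster at 8.96% and 10.1%, and monocyte-like cells at 18.7% and 19.5%. Cells like natural killer (NK) cells, 35 and 24 of them, were at 17.9% and 21.3%, and so overlapped with the monocyte-like cells. B cell-like cells were at 30.5% and 30.1% and T cell-like cells at 35.9% and 34.4%, a ratio of T cell-like to neutrophil-like cells of 5.94 ± 0.507 (SD, n = 2). Platelet-like cells of the Het sample were at 7.92%.

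In naive brain the order ran through 5 clusters with at least 20 cells in each sample. A low-RNA cluster of the CD45low CD11b+ antibody gate, with a median of 1563 UMIs per cell and left unnamed here, was at 5.83% ± 0.122 (SD, n = 4). Microglia-like cells, the resident macrophages of brain tissue, were at 8.19% ± 0.422, and endothelial-like cells at 11.4% ± 0.902. Border macrophage-like cells were at 17.5% ± 0.845, and a lymphoid cluster led by Gzma, Xcl1 and Nkg7 at 23.5% ± 1.44. No neighbours in this order overlapped in any of the 4 samples. Haemoglobin genes stood among the leading genes of the last cluster, and 126 of its 248 cells lay in the T gate. The widest 95% Wilson interval of any share from at least 20 cells was 0.236 percentage points to either side. These intervals cover counting error only and take corrected counts as if each were an observed molecule. They understate counting error where corrected totals exceed raw UMIs, as in the low-RNA cluster (medians of 4994 and 1563 per cell).

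**Figure D1:**
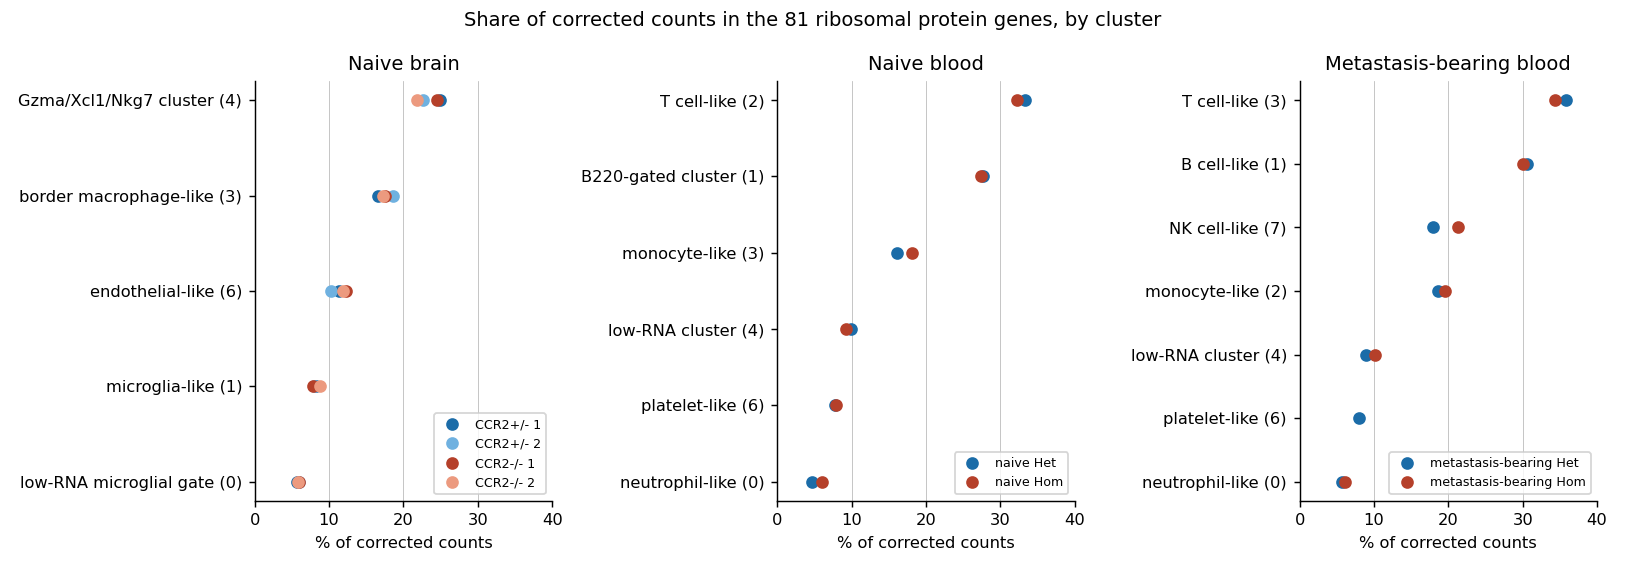
Share of all corrected counts that fell on the 81 ribosomal protein genes (x axis, percent), for each cluster with at least 20 cells in a hashed sample (y axis; the number in brackets is the authors' cluster number). Each point is 1 hashed sample, and the order from neutrophil-like (4.69% to 6.17%) to T cell-like cells (32.2% to 35.9%) is the same in both blood tables.

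The clusters were made from RNA that included these genes, so their differences are a description without a test. Depth moved with the share inside several clusters. In naive blood neutrophil-like cells the median share per cell was 6.22% in the third of cells with the fewest UMIs and 3.48% in the third with the most, and in the low-RNA brain cluster it was 8.35% and 3.49%. In T cell-like cells of naive blood it went the other way, from 32.1% to 35.6%. The part of depth in the differences among classes was not tested. With cells of 2000 to 10000 UMIs only, T cell-like cells held 6.82 ± 1.79 times the share of neutrophil-like cells in naive blood and 6.19 ± 0.407 times in metastasis-bearing blood. This window does not match depth between the classes. The naive Het medians of 3036 UMIs (neutrophil-like) and 7760 UMIs (T cell-like) both lie inside it. The ratio of large to small subunit counts stayed between 1.10 and 1.22 in brain, between 1.03 and 1.35 in naive blood and between 1.00 and 1.22 in metastasis-bearing blood.

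The authors' gate labels are named after antibody targets, and the members were tested between them on the premise that the gates were set from the antibody tags and not from RNA. The rules behind the gates are not given in the sources used here, and the labels were used as deposited. The 4 blood samples were summed per gate over the B220+, T, Ly6C high (inflammatory monocyte) and Ly6C Ly6G (neutrophil) gates and compared within samples. Each sum held 58 to 931 cells. The members took 25.1% to 27.6% of corrected counts in the B220+ gate, 23.5% to 32.5% in the T gate, 15.7% to 19.4% in the Ly6C high gate and 4.64% to 6.42% in the Ly6C Ly6G gate. Differences below are log2 differences of the level per 10000 with a pseudocount of 1 corrected count, from limma with the sample as a block and Benjamini-Hochberg adjustment over 12436 genes. A member is called at an adjusted p under 0.05. Rpl39l had too few counts to be tested, which left 80 members.

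In the neutrophil gate 78 of the 80 members were lower than in the B220+ gate, where 51.8% of all genes tested were lower and 17.4% higher. The median difference was -2.26, a level 4.79 times lower, against a median of -0.85 over all genes. Rps19, a small subunit protein whose gene is mutated in Diamond-Blackfan anaemia, was the most lower. It was at 47.5, 44.1, 54.9 and 49.8 per 10000 in the B220+ gate of the Het and Hom samples of naive blood and then the Het and Hom samples of metastasis-bearing blood, and at 3.79, 4.55, 2.91 and 3.94 in their neutrophil gate. The groups were far apart in every sample, and the difference was -3.71 (SE 0.137, adjusted p = 3.3e-13). Rps20 (-3.69) and Rps18 (-3.38) of the small subunit and Rpl12 (-3.65) and Rpl10a (-3.35), which sit at the mobile stalks of the large subunit, were lower by nearly as much. Rps24, the most abundant member in blood, was lower by 3.25, and Rpl3, which lies near the peptidyl transferase centre, differed by -3.16.

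Rps9, a small subunit protein that binds the ribosomal RNA early in assembly, was not called. It was at 36.7, 37.7, 40.8 and 41.3 per 10000 in the B220+ gate and at 28.2, 32.5, 36.6 and 41.6 in the neutrophil gate of the same samples. The ranges overlapped, and the difference was -0.18 (SE 0.101, adjusted p = 0.11). All 80 members were called, 79 lower and 1 higher, when levels were scaled to the total without the members. In that fit 7506 of 12436 genes were lower and 1755 higher. With gated cells kept to the cluster that matches the gate, 79 members were again lower and 1 higher. There 6480 of 12001 genes were lower and 2268 higher. Rps9 was thus called lower in both fits. In neutrophil-like clusters Rps9 held the largest part of all 81 members, 5.83% of member counts in naive and 6.66% in metastasis-bearing blood, against 1.63% and 1.75% in the other clusters.

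Members next in order after Rps9 and the low-level paralogue Rps27l (-0.62) were also abundant ones. Rps27a, which is made as a fusion with ubiquitin, was at 39.0 to 42.4 per 10000 in the B220+ gate and at 18.9 to 29.3 in the neutrophil gate, a difference of -0.77 (SE 0.108, adjusted p = 4.2e-06). Rpl37 went from 41.6 to 42.8 down to 18.3 to 28.5, a difference of -0.89 (adjusted p = 7.1e-07), and Rpl41, the shortest ribosomal protein, differed by -1.22. The levels of these 3 members in the neutrophil gate lay below those of the B220+ gate in every sample. Rps25 differed by -1.37.

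Rpl3l, the striated muscle paralogue of Rpl3, was the only member called higher in the neutrophil gate (4.04, SE 0.621, adjusted p = 1.3e-05). Its level was 0.348, 0.369, 0.226 and 0.251 per 10000 in the neutrophil gate and 0.0206, 0.0160, 0.00340 and 0.0270 in the B220+ gate, in the same order of samples. These are 331 corrected counts against 17 over the 4 samples, and Rpl3 was at 1.70 to 2.66 per 10000 in the same neutrophil gate. In GRCm38.p6 Rpl3l lies on chromosome 17 from 24727826 to 24736143, on the same strand as Msrb1 and 450 bases upstream of it. Msrb1, a methionine sulfoxide reductase, was 4.66 higher in the neutrophil gate (adjusted p = 1.4e-08), and whether reads of Msrb1 transcripts entered the count of Rpl3l was not tested. The nearest tested genes of Rps9, at 2919 and 5608 bases, are Tsen34, with a difference of 0.14, and Pirb, with 3.44.

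**Figure D2:**
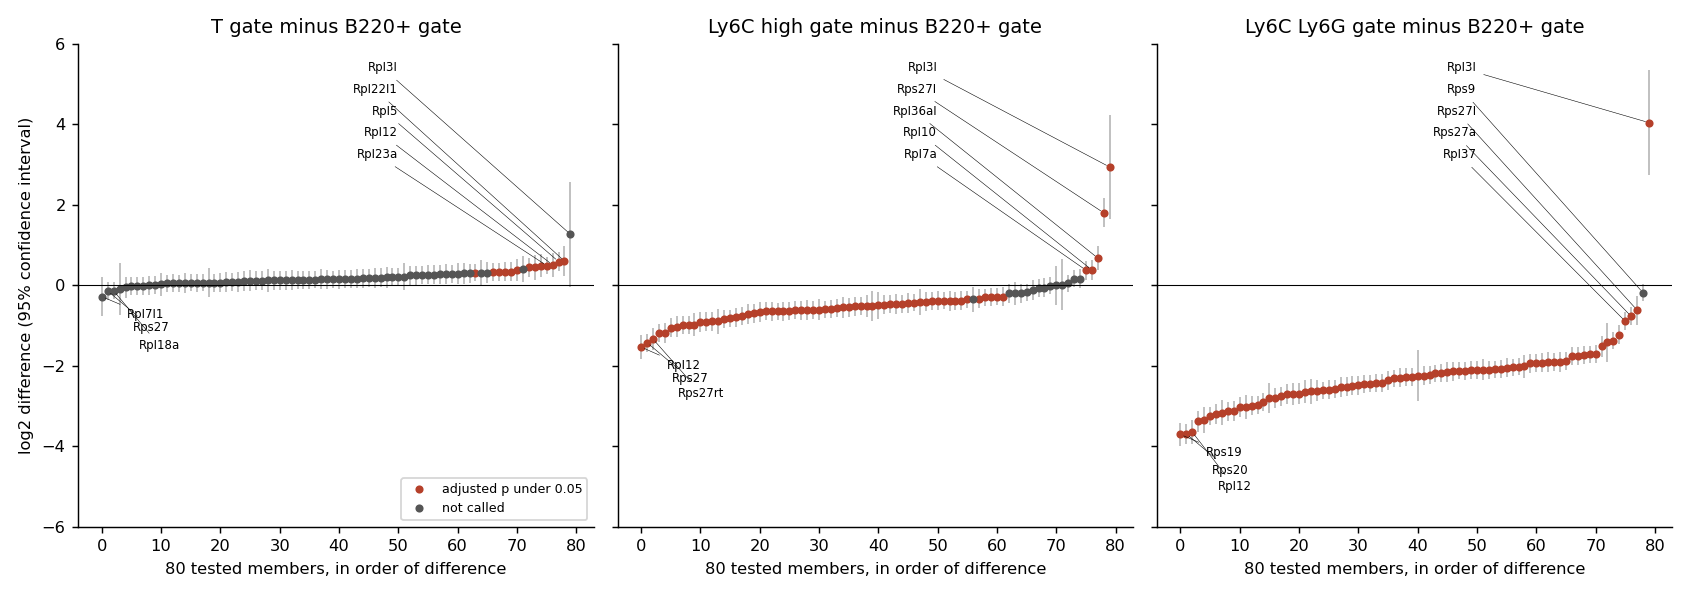
Log2 difference of each of 80 members between an antibody gate and the B220+ gate of blood (y axis), with members in order of their difference (x axis), points for the estimate and bars for its 95% confidence interval (4 samples per gate). In the Ly6C Ly6G gate 78 members are called lower with a median of -2.26, while Rps9 stays at -0.18 and Rpl3l is at 4.04.

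Markers of other cells in these gates were as follows. Cd79a, a B cell receptor component, was at 33.1 to 34.8 per 10000 in the B220+ gate and at 0.356 to 1.16 in the neutrophil gate, and S100a8, a neutrophil protein, was at 709.5 to 986.4 in the neutrophil gate and at 7.45 to 21.0 in the B220+ gate. At least 96.0% of the cells of the neutrophil gate and at least 78.8% of those of the B220+ gate lay in the matching cluster of their sample. With gated cells kept to the matching cluster, 79 of 80 members were lower and 1 higher, where 6480 of 12001 genes were lower and 2268 higher. This alternative was added after the gates had been set beside the clusters. Those clusters were made from RNA that included the members, so the count of members is a description and no test between antibody gates. The gates differed in depth too, with a median of 2828 to 3331 UMIs per cell in the neutrophil gate and 3956 to 4763 in the B220+ gate. With cells of 2000 to 10000 UMIs only, a window that holds all of these medians, 78 members were lower and 1 higher. In that fit 6340 of 11943 genes were lower and 2033 higher.

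Most of the rest of the translation machinery was lower in the neutrophil gate as well, beside 51.8% of all genes tested lower and 17.4% higher. All 7 of the cytosolic ribosomal proteins outside the symbol pattern were called lower, with Rpsa at -3.41 (SE 0.128) and Rack1 at -2.58 (SE 0.125). All 7 elongation factors were lower, among them Eef1a1 at -2.51 and Eef1g at -2.71. Of 26 initiation factors 24 were lower and 1 higher, with the eIF3 subunits Eif3e at -3.56 and Eif3i at -3.53. Of 30 ribosome biogenesis factors, which make and trim ribosomal RNA in the nucleolus, 29 were lower, with Fbl at -3.35 and Ddx21 at -3.57. These medians ran from -1.61 for initiation to -2.76 for biogenesis, beside -2.26 for the members and -0.85 for all genes. All 7 tested TOP mRNAs outside the ribosome were lower, among them Npm1 at -2.89 and Naca at -1.85.

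Mitochondrial ribosomal proteins, which build the separate ribosome of mitochondria, were lower in 71 of 78 and higher in 3, with a median of -2.33. Mrpl33 was the exception of greatest size at 3.17 (SE 0.171), while Mrpl23 was at -2.78. Of 12 tested repressors and regulators of TOP mRNA translation 7 were lower and 4 higher, where 51.8% of all genes were lower and 17.4% higher. The median of this list, -0.89, lay near the -0.85 of all genes. Pdcd4, which binds the helicase Eif4a, was at -2.34, and Mxd1, a repressor that opposes Myc, at 5.28. Of 7 tested recycling and hibernation factors 6 were lower, among them Serbp1 at -2.03 and Ifrd2 at -4.23.

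In the Ly6C high gate 61 of 80 members were lower than in the B220+ gate and 5 were higher. Of all genes tested 19.5% were lower and 22.7% higher, and the median difference of the members was -0.50 against 0.00 over all genes. Median depth was 11183 to 14172 UMIs per cell in the Ly6C high gate and 3956 to 4763 in the B220+ gate. A window of 2000 to 10000 UMIs holds none of these Ly6C high medians. With cells in it only, the median difference was -0.71 for the members and 0.86 over all genes. The part of depth in these differences was not tested. Rpl12 was the most lower, at 10.2 to 13.2 per 10000 against 31.7 to 37.6 in the B220+ gate, a difference of -1.53 (SE 0.138, adjusted p = 4.4e-08). Rps27 differed by -1.42 and its copy Rps27rt by -1.33. The ranges of these members did not overlap between the gates.

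The 5 members called higher in monocytes included 3 paralogues. Rps27l, a paralogue of Rps27 that p53 induces, was at 3.45, 3.88, 4.32 and 3.69 per 10000 in the Ly6C high gate in the sample order above and at 1.17, 1.28, 0.880 and 1.10 in their B220+ gate. Every monocyte value lay above every B220+ value, with a difference of 1.80 (SE 0.173, adjusted p = 1.0e-07). Rpl36al, a paralogue of Rpl36a, was at 6.02 to 8.49 against 4.18 to 4.87, a difference of 0.68 (SE 0.138, adjusted p = 0.00055), while Rpl36a differed by -0.89. Rpl3l differed by 2.94 on 60 corrected counts against 17. Rpl10 and Rpl7a each differed by 0.38. Without the metastasis-bearing Het or the metastasis-bearing Hom sample 3 members were higher, where 2116 of 11972 and 2776 of 12018 genes were. Without the naive Het sample it was 7, where 2371 of 11973 genes were. With cells of 2000 to 10000 UMIs only it was 2, where 6074 of 11943 genes were higher and 833 lower.

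The lists around the ribosome are read here against the shares of all genes in the Ly6C high gate, 22.7% higher and 19.5% lower. Of 30 biogenesis factors 14 were lower and 2 higher, with Ncl at -1.12 and Gnl3 at -1.83. Of 26 initiation factors 5 were higher and 3 lower, with the paralogous helicases Eif4a1 at 0.92 and Eif4a2 at -1.70. Of 78 mitochondrial ribosomal proteins 20 were higher and 3 lower, with Mrpl33 at 2.55 and Mrps21 at 1.15. The shares of these 2 lists that were higher lay near that of all genes. The other cytosolic ribosomal proteins were lower in 5 of 7, among them Rplp1 at -0.75. Eef1g (-1.42) and Eef1d (-0.65) were the 2 elongation factors called lower of 7.

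The remaining lists were mixed in this gate. The repressor Pdcd4 was at -1.46 and Eif4ebp1, which holds back cap-dependent initiation, at 1.99, in a list with 5 lower and 2 higher of 12. Of 7 other TOP mRNAs 2 were higher and 1 lower, with Btf3 at 0.41 and Hnrnpa1 at -0.80. Ifrd1 (-1.56) and Serbp1 (-0.44) were among the 3 lower of 7 recycling and hibernation factors.

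In the T gate 13 of 80 members were higher and none lower than in the B220+ gate at an adjusted p under 0.05 (limma). Of all genes tested 11.6% were higher and 6.66% lower. The median difference was 0.16 for the members, near the 0.14 of all genes. At an unadjusted p under 0.05 there were 28 of 80 members (35%), where 28.9% of all genes were. Rpl5, which carries the 5S ribosomal RNA, was at 20.1, 28.9, 24.98 and 25.6 per 10000 in the T gate in the same order of samples and at 16.6, 15.9, 17.0 and 16.1 in their B220+ gate. It was higher in all 4 samples, by 0.59 (SE 0.113, adjusted p = 0.00078). Rpl22l1, a paralogue of Rpl22, was at 7.36 to 11.4 against 6.21 to 6.95, a difference of 0.60 (SE 0.176, adjusted p = 0.021), while Rpl22 itself differed by 0.06 (adjusted p = 0.76).

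The count in the T gate moved with the samples and with the cells kept in the gate. In the naive Het sample 46.3% of the T gate lay in the T cell-like cluster, against 75.7% to 81.5% in the other 3 samples, and S100a8 was at 136.8 per 10000 there against 7.20 to 35.1. Without the naive Het sample 36 members were called higher, where 1190 of 11973 genes were. With gated cells kept to the matching cluster 52 members were, where 1812 of 12001 genes were. The 52 is a description only, since it picks cells by clusters made from RNA that included the members. Without any 1 of the other samples 2 or 3 members were called higher. Over all genes it was 1049 of 11838 without naive Hom, 953 of 11972 without metastasis-bearing Het and 1212 of 12018 without metastasis-bearing Hom. Rplp0 (0.88) and Rplp1 (0.69) led the 4 higher of 7 other cytosolic ribosomal proteins, in which 1 was lower, and Eef1b2 (0.74) and Eef1a1 (0.36) were the 2 elongation factors called of 7.

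The other lists of the T gate stand beside 11.6% of all genes higher and 6.66% lower. The TOP mRNAs Npm1 (0.71) and Tpt1 (0.61) were 2 of 3 called higher of 7. Wdr12 (1.10) was the 1 biogenesis factor called of 30. Pdcd4 (0.79) and Eif4ebp2 (0.53) were the 2 repressors called of 12, and Mrpl33 (0.84) and Mrpl58 (1.11) the 2 mitochondrial ribosomal proteins called higher of 78, in which 1 was lower. No initiation factor of 26 and no recycling or hibernation factor of 7 was called.

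**Figure D3:**
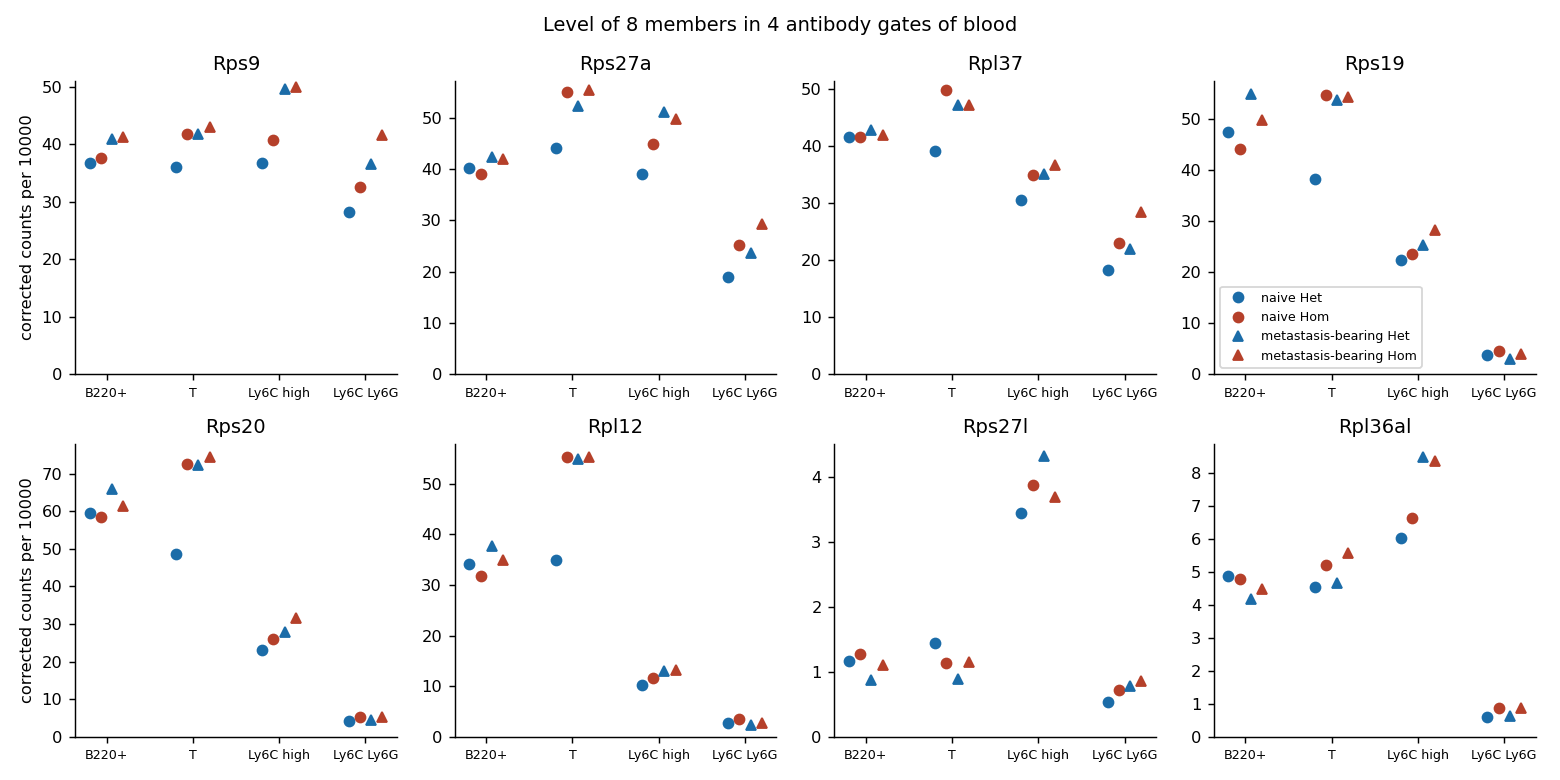
Level of 8 members (y axis, corrected counts per 10000, each panel on its own linear scale from 0) in 4 antibody gates of blood (x axis), with 1 point per hashed sample. Rps9 stays at 28.2 to 41.6 in the Ly6C Ly6G gate where Rps19 is at 2.91 to 4.55, and Rps27l is highest in the Ly6C high gate (3.45 to 4.32).

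The share of each member in the pool of ribosomal protein mRNA was described as well. In blood it rests largely on the same cells and counts as the gates, so exceptions that recur are no second result. For each of 15 clusters with at least 100 cells, a member's share of all member counts was divided by its mean share in the other clusters of the table, each weighted equally. A departure was a ratio of at least 2 (1 log2 unit) with the same sign in every hashed sample with at least 20 cells and at least 20 corrected counts on the higher side. Of 1215 pairs of member and cluster 44 departed, 16 higher and 28 lower, and they involved 18 of the 81 members. The other 63 kept their share of the pool within a factor of 2 in every cluster or did not meet the rule. These values were chosen by size and carry no test.

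Neutrophil-like cells held most departures. In metastasis-bearing blood the log2 departure was 3.87 for Rpl3l, 1.93 for Rps9, 1.39 for Rpl37, 1.22 for Rps27a and 1.12 for Rps27rt. On the low side it was -1.67 for Rps19, -1.65 for Rpl10a, -1.63 for Rpl12, -1.57 for Rps18, -1.54 for Rpl3 and -1.39 for Rps20, and Rpl22l1, Rpl36a, Rpl36al and Rpl32 lay between -1.30 and -1.12. In naive blood the departures were 3.72 for Rpl3l, 1.84 for Rps9, 1.23 for Rpl37 and 1.12 for Rps27a, and -1.17 for Rps20, -1.10 for Rpl12, -1.07 for Rps18 and -1.07 for Rps19. In naive brain only 36 cells were neutrophil-like, too few for the rule. There Rps9 made up 4.03% and Rps27a 4.17% of member counts, against 1.95% and 1.92% in microglia-like cells, and Rpl37 2.84% against 1.90%. Rpl12 made up 0.452% against 1.01% and Rps18 0.657% against 0.953%, while Rps20 was at 0.990% against 1.40%. Rps19, the most lower member in the neutrophil gate of blood, was at 0.861% against 0.992%. In border macrophage-like, Gzma and endothelial-like cells Rps19 made up 1.41%, 1.24% and 1.49% and Rps9 1.79%, 1.38% and 1.34%. The neutrophil-like values of Rpl12, Rps18 and Rps19 rest on 42, 61 and 80 corrected counts. These brain values were looked up after those of blood had been seen.

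In the other clusters the departing members were Rps27l, Rpl36al, Rps27rt, Rpl7l1, Rps19bp1, Rps9 and Rpl3l. Rps27l was up in the pool of monocyte-like cells (1.63 in naive and 1.49 in metastasis-bearing blood) and down in T cell-like cells (-1.31 and -1.97), in B220-gated or B cell-like cells (-1.02 and -1.69), in the low-RNA cluster of naive blood (-1.12) and in the Gzma cluster of brain (-1.64). Rpl36al was up in monocyte-like cells of metastasis-bearing blood (1.21) and in the low-RNA cluster of brain (1.01). Rps27rt was down in monocyte-like cells of metastasis-bearing blood (-1.002).

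In microglia-like cells Rpl7l1, a nucleolar relative of Rpl7, was up by 1.48 and Rps19bp1 by 1.38, and both were down in the Gzma cluster (-1.86 and -1.0004). Rpl7l1 was also down in T cell-like cells of metastasis-bearing blood (-1.21), and Rps19bp1 up in monocyte-like cells of naive blood (1.16). Rps9 was down in T cell-like cells (-1.14 and -1.26) and in B cell-like cells of metastasis-bearing blood (-1.03), where the comparison clusters include the neutrophil-like cells that hold it high. Rpl3l was down in T cell-like cells of metastasis-bearing blood (-4.89) on 2 corrected counts. Nearest to the threshold, Rps19bp1 in the Gzma cluster and Rps27rt in monocyte-like cells lay just inside it, and Rpl35 in neutrophil-like cells (-0.995) and Rpl12 in T cell-like cells (0.989) of metastasis-bearing blood just outside.

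**Figure D4:**
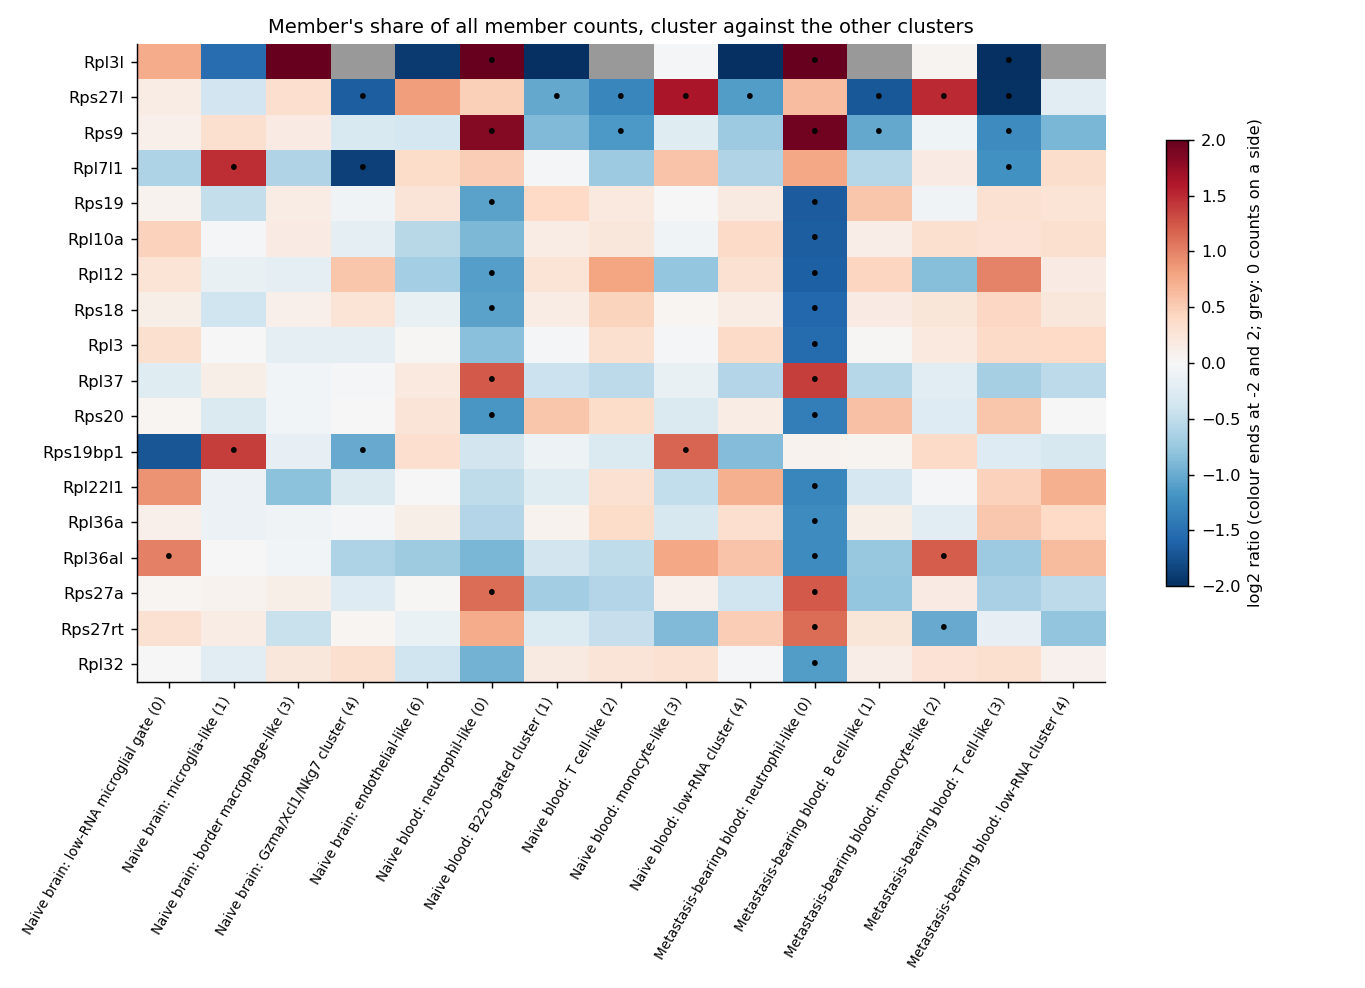
Log2 ratio of a member's share of all member counts in a cluster to its mean share in the other clusters of the same table (colour, ending at -2 and 2), for the 18 departing members (rows) and 15 clusters (columns). Dots mark the 44 departures, which in the neutrophil-like columns run from -1.67 (Rps19) to 3.87 (Rpl3l).

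The comparison of CCR2-/- with CCR2+/- asked whether loss of this chemokine receptor, which draws monocytes out of the marrow and into tissue, went with a change in naive brain. No member was called in any of 5 clusters at an adjusted p under 0.05 (limma, 2 against 2 samples, 79 members tested in each). Of all genes tested 0.0607% were called in the low-RNA cluster, 0.532% in microglia-like cells, 0.244% in border macrophage-like cells, 0.0141% in the Gzma cluster and 0.127% in endothelial-like cells. At an unadjusted p under 0.05 there was 1 of 79 members in border macrophage-like and 1 of 79 in endothelial-like cells, where 8.79% and 7.37% of all genes were, and none in the other 3 clusters. Rpl22l1 in border macrophage-like cells was at 4.72 and 5.39 per 10000 in the CCR2+/- samples and at 3.40 and 3.44 in the CCR2-/- samples, and both CCR2-/- values were lower (-0.55, adjusted p = 0.44). Rps21 in endothelial-like cells was at 27.3 and 21.6 against 30.7 and 35.4, higher in both CCR2-/- samples (0.44, adjusted p = 0.66).

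The median log2 difference of the members was 0.01 in the low-RNA cluster, 0.03 in microglia-like cells, -0.02 in border macrophage-like cells, -0.03 in the Gzma cluster and 0.16 in endothelial-like cells, where 70 of 79 members were higher. With cells of 2000 to 10000 UMIs only, the median turned to -0.03 in endothelial-like cells, with 29 of 79 members higher. It was -0.26 in the low-RNA cluster, where 74 of 78 members were then lower and none was called, and -0.01 in microglia-like cells. Over all genes, with all clear cells, the medians were -0.04, -0.04, 0.11, 0.01 and -0.08. The 95% interval of a single member reached, in the median, 0.206 to either side in microglia-like cells and 0.389 in endothelial-like cells. These intervals are not adjusted for the number of genes, so differences larger than these could also go uncalled, as Rps21 in endothelial-like cells did. None of the genes of the 8 lists around the ribosome was called in any brain cluster.

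In microglia-like cells it was 8.22% and 8.02% in the CCR2+/- samples and 7.77% and 8.76% in the CCR2-/- samples, overlapping. In border macrophage-like cells it was 16.5% and 18.6% against 17.5% and 17.2%, in the Gzma cluster 24.9% and 22.6% against 24.4% and 21.9%, and in the low-RNA cluster 5.68% and 5.92% against 5.95% and 5.79%, again overlapping. In endothelial-like cells both CCR2-/- values, 12.3% and 11.8%, lay above both CCR2+/- values, 11.4% and 10.2%, with a difference of 1.28 percentage points. The exact two-sided permutation p was 0.333, the smallest that 2 against 2 samples allow, and with cells of 2000 to 10000 UMIs only the difference was -0.34. Samples here are separate hashed brains, and p-values measure the spread between 2 of them per group.

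**Figure D5:**
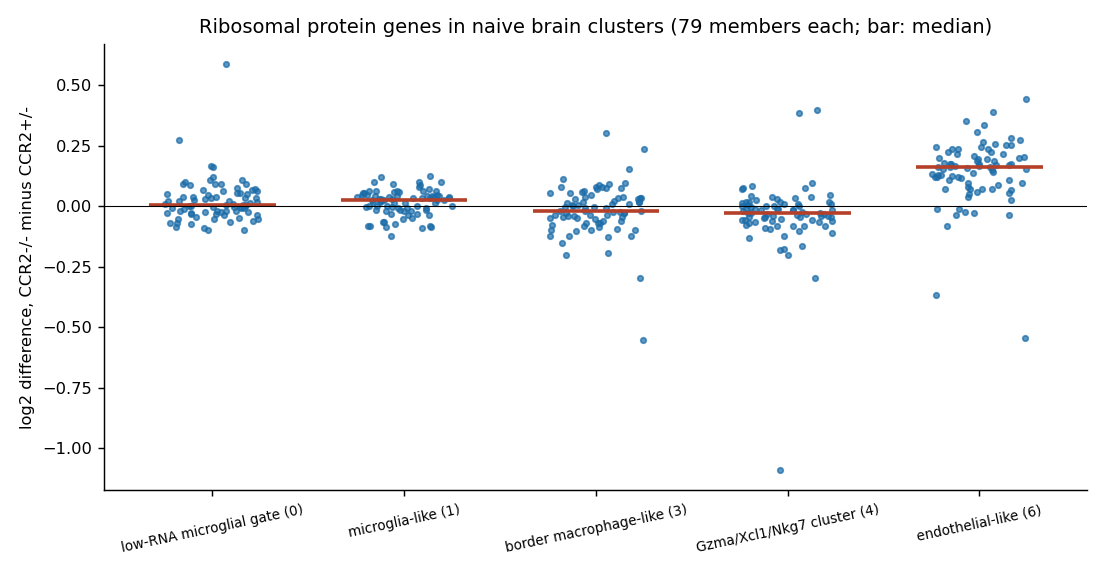
Log2 difference of each of 79 members between CCR2-/- and CCR2+/- naive brain (y axis) in 5 clusters (x axis), with a bar at the median. Medians lie between -0.03 and 0.16, and no member was called in any cluster.

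Hom and Het blood were 1 sample each, so their difference has no replicate check and gets no p. In neutrophil-like cells of naive blood the share was 4.69% in Het and 5.99% in Hom, and all 79 members with at least 20 corrected counts were higher in Hom, with a median log2 ratio of 0.38 against 0.21 over all genes. Few of them, Rpl36 and Rpl7l1 included, passed 1.5-fold, where 25.6% of all genes did. In metastasis-bearing blood 69 of 80 were higher in Hom with a median of 0.13, and only Rps19bp1 passed 1.5-fold, where 11.5% of all genes did.

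In T cell-like cells the share was lower in Hom by 1.16 points in naive and by 1.48 points in metastasis-bearing blood, and in B220-gated or B cell-like cells the difference was -0.345 and -0.463 points. No member passed 1.5-fold in these 4 comparisons, where 11.8%, 12.8%, 6.78% and 9.1% of all genes did. Monocyte-like cells were 1.99 and 0.819 points higher in Hom, and only Rpl3l passed 1.5-fold, lower in naive Hom and higher in metastasis-bearing Hom, where 14.4% and 10.7% of all genes did. In the low-RNA clusters Rpl7l1 (naive) and Rps27l (metastasis-bearing) passed it, where 30.4% and 39.9% of all genes did, in naive platelet-like cells Rpl11 (18.2% of all genes), and in NK cell-like cells Rpl22l1 and Rps2 (23.9%).

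Metastasis-bearing and naive blood stood in separately normalised tables and are set side by side without a test. The share was higher in the metastasis-bearing sample than in the naive sample of the same label by 2.47 and 2.15 points in T cell-like cells (Het and Hom), by 2.84 and 2.72 points in B220-gated or B cell-like cells, by 2.53 and 1.36 points in monocyte-like cells and by 1.01 and 0.175 points in neutrophil-like cells. In the low-RNA cluster the difference was -0.930 points between the Het samples and 0.865 points between the Hom samples. The 845 barcodes that stood in both blood tables had a median difference in share of -0.03 points between the 2 tables for the same cell, with -0.59 points at the 5th and 0.55 points at the 95th percentile. Tumour and sample cannot be told apart here, since each group is 1 sample.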

How the data were processed

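Per the submitters' processing notes, Cell Ranger 3.1 and the mm10 build were used upstream. The deposited tables hold natural log values: the natural log of 1 plus a corrected count that the authors' normalisation gave, 1 table each for naive brain, naive blood and metastasis-bearing blood. Exponentiating and subtracting 1 gave whole numbers to within 2.2e-11. The deposited cell descriptions give raw counts per cell, the authors' clusters, hashtag calls and antibody gates. Cells are the authors' hashtag singlets, and no doublet caller was run. Raw counts per gene were not used here.

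Corrected counts were summed per hashed sample and cluster or gate and expressed per 10000. limma 3.58.1 in R 4.3.3 (lmFit, eBayes with trend) tested log2 of (sum + 1) over the total for genes with at least 20 corrected counts, with Benjamini-Hochberg adjustment; the script was tested on simulated data. Exact permutation tests and Wilson intervals used scipy 1.17.1. Clusters were named from listed markers, and those with leading genes of another kind were left unnamed. All samples shared 1 library.

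The members, lists and tests were chosen with earlier results of these data known. Named members were those that departed by at least 2-fold (up to 20), the paralogues and the members they resemble, the 5 highest and 5 lowest per tissue, members called in brain, and up to 2 called genes per list with the smallest adjusted p; Rpl5, Rpl10, Rpl7a, Rpl35, Rpl41, Rps15a, Rps25, Rpl11, Rps2 and other members past 1.5-fold in Hom against Het were named beside them after their values were seen. Alternatives were the pseudocount, the filter, the scaling, the cells used, the weighting, added genes and leaving out samples. Some single genes are not reported here.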

Additional observations from a re-analysis of the deposited data

Results flagged for a closer look

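Hom and Het differed in opposite directions in the low-RNA cluster of blood. The share of the members was lower in Hom in naive blood, a difference of -0.656 points, and higher by 1.14 points in metastasis-bearing blood. These cells had a median of 1109 and 1058 UMIs in the 2 tables, and haemoglobin genes stood among their leading genes. Mitochondrial and haemoglobin genes took 27.7% of counts in naive Het and 31.2% in naive Hom. Without them in the total, the share was 13.7% in Het and 13.4% in Hom of naive blood. In metastasis-bearing blood it was then 12.7% in Het and 14.4% in Hom. The difference between the 2 tables was not tested, since each value comes from 1 sample per group. In the 4 other classes matched between the tables the sign was the same in both.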

How the results depend on the processing

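Of 187 alternative values 167 kept their result within the spread of the samples or, for counts, within 1.5 times. The count of calls was 0 in each brain cluster in every fit that was run, but the fits that leave out a sample set 1 sample against 2, with the lone sample assumed to vary like the other group. The 78 members lower in the neutrophil gate stayed at 78 or became 79, in which case Rps9 was called lower too. The count of 18 departing members was 18 with all deposited cells and 22 with cells of 2000 to 10000 UMIs.

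The 13 members higher in the T gate became 6 with all deposited cells, where 1365 of 13284 genes were higher. They ran from 2 to 36 without 1 sample, beside the counts of all genes given above. They became 52 with gated cells kept to the matching cluster, which picks cells by RNA and so is no test. The 5 members higher in the Ly6C high gate became 3 with scaling to the total without the members, where 2446 of 12436 genes were higher. They became 2 with cells of 2000 to 10000 UMIs, where 6074 of 11943 genes were, and ran from 3 to 7 without 1 sample. That scaling moved the median of all genes from -0.85 to -1.20 in the neutrophil gate, and from 0.00 to -0.15 in the Ly6C high gate, where cells of 2000 to 10000 UMIs only moved it to 0.86. With cells of 2000 to 10000 UMIs the brain difference in share was -0.755 points in the low-RNA cluster (0.066 before) and -0.339 in endothelial-like cells, where a hashtag share of at least 0.7 gave 0.647, and the Gzma cluster held 3.28 times the share of microglia-like cells (2.87 before). The median log2 ratio of Hom to Het over naive blood clusters (0.0039) was 0.0121 with all deposited cells, 0.0325 at a hashtag share of 0.7, 0.0832 with cells of 2000 to 10000 UMIs and -0.0025 as a mean of single-cell shares. In metastasis-bearing blood (0.0879) it was 0.0553 with all cells and 0.0602 with cells of 2000 to 10000 UMIs. The causes were not tested. Border macrophage-like cells had too few cells in that window, so both of their tests were not run there. No paired analysis was possible because the hashed brain samples carry no numbers in the labels that tie animals of the 2 genotypes.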
